A study of Homo sapiens with 12 samples.

Results

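The vehicle-treated libraries of HEK293 cells are described here as a baseline transcriptome: which genes these cells express, at what level, and which they do not. The members are the 3 libraries titled as controls, and they were chosen by their titles out of 12 libraries in all. Their treatment label reads vehicle, so they are called vehicle libraries below rather than untreated cells; what the vehicle contained is not stated there. The study set out to see how oleic acid acts on cells given ferric ammonium citrate (FAC, a soluble iron salt used to overload cells with iron). All 12 libraries come from HEK293, an established line derived from human embryonic kidney and transformed with adenovirus DNA. They form 4 groups of 3 libraries: oleic acid with FAC, FAC, oleic acid, and vehicle. No dose and no time is given in the sources used here. The replicates are numbered, and nothing in the labels says whether they were separate cultures, so every spread and p-value measures only the differences between these libraries, which may be technical. HEK293 is a laboratory line that has lost the organisation of kidney, so its levels stand for the line and not for a kidney cell type.

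Ferroptosis is a form of cell death in which iron helps to oxidise the polyunsaturated fatty acids of membrane phospholipids. A cell's exposure to it depends on how much iron is taken up, stored in ferritin and exported, on which fatty acids are built into its phospholipids, and on defences that reduce lipid peroxides, chiefly glutathione peroxidase 4 fed by cystine and glutathione. Oleic acid is a monounsaturated fatty acid, which does not carry the easily oxidised carbon atoms of polyunsaturated ones. The levels of these genes in vehicle libraries are therefore the starting point of the experiment.

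Levels are given as TPM, that is, counts divided by transcript length and scaled so that each library sums to 1000000, which allows genes of different length to be compared. Values of 3 libraries are listed in the order vehicle library 1, 2 and 3. These libraries held 15509613, 16256976 and 17497094 counts, within the series' range of 14098216 to 18717397. A gene was called detected at 1 CPM (a count per 1000000, scaled by TMM) or more in each of the 3 libraries, and at the floor with at most 3 counts in each. A count of 0 allows up to 3 counts, or 0.165 to 0.185 CPM in these libraries, and this limit covers counting error only. By these rules 12702 of 36459 gene symbols were detected (34.8%), and 20510 (56.3%) were at the floor. Among protein-coding genes 12313 of 19814 were detected (62.1%), and 5051 (25.5%) were at the floor. These 2 shares of protein-coding genes are the background against which the gene lists below are read. Replicates were set against each other by a chi-square over genes; divided by its degrees of freedom it was 15.8 for libraries 1 and 2, 20.9 for 1 and 3, and 8.14 for 2 and 3, all above counting noise. Their log2 levels were correlated across genes at 0.985, 0.985 and 0.992 for the same pairs, as a description, since genes are not independent. The length behind a TPM is the mean over the transcripts that took the gene's counts. Dividing by the longest transcript instead moved the median detected protein-coding gene by 1.15 times and 105 of 384 detected genes of the lists and of the highest 20 by over 1.5 times, 60 of them downward. Of the genes given below, OCLN would then stand at 11.95, TECR at 195, PODXL at 22.2, GPX8 at 28.98, DGAT1 at 14.1, LHX1 at 10.7, DHODH at 5.93, NQO1 at 3.69, ACSL6 at 2.04, ALOX12B at 1.91, DGAT2 at 1.79 and LRP2 at 1.35 TPM. BMP6, CUL1, FTL, GPX1, HACD3, HMOX1, INA, LIN28B, MTRNR2L12, PCBP1, PEBP1, SCD, SCD5, SLC27A4, SOX2 and TXN would stand 1.503 to 1.519 times higher. FTL and SCD have 1 annotated transcript each, so their rise comes from rescaling each library to 1000000 and not from their own length. The upward moves of the other genes include the same rescaling. For 22 of the 384 genes, transcripts with a known length held under 80% of the vehicle counts, so the length rests on a part of them. Among these are RPL7A, ACACA, ACSL6, ALOX5, DGAT1, FDFT1, FECH, GGT1, GSS, HMOX2, LHX1, LPCAT1, PPARG and WT1.

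A large share of the messenger RNA came from few genes, and most of those encode the translation machinery. A set of 138 protein-coding genes at 1000 TPM or more held 42.0%, 41.2% and 41.3% of all TPM in the vehicle libraries. The 1348 genes between 100 and 1000 TPM held 31.0%, 30.1% and 30.4%. By contrast, 4021 genes between 1 and 10 TPM held 1.79%, 2.00% and 1.88%, and 7270 protein-coding genes lay under 1 TPM. The median detected protein-coding gene stood at 20.2 TPM, with quartiles at 7.68 and 49.1 TPM. In these libraries 249, 274 and 271 genes were enough to hold 50% of all TPM.

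**Figure D1:**
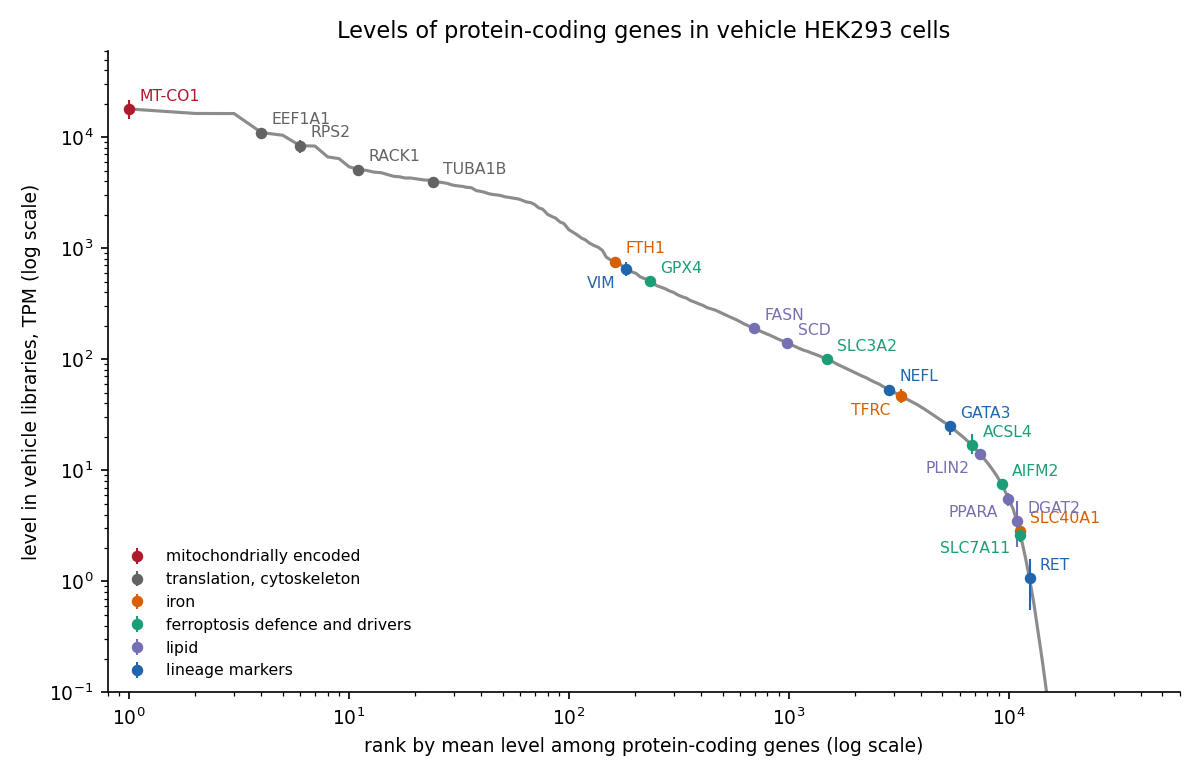
Mean level of protein-coding genes in the 3 vehicle libraries (TPM, log axis) against their rank (log axis); points are means over 3 libraries and bars run from the lowest to the highest library, with some translation, iron, ferroptosis, lipid and lineage marker genes named. EEF1A1 and RPS2 sit at the upper left, FTH1 and GPX4 lie at ranks 162 and 234, and SLC7A11, SLC40A1 and DGAT2 average 2.63, 2.82 and 3.50 TPM.

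Among nuclear genes the highest was EEF1A1 (chr6:73515750-73523797, minus strand), which delivers aminoacyl-tRNA to the ribosome. It stood at 10256, 12019.9 and 10712 TPM (10996 ± 916, SD, n = 3). RPS2 (chr16:1962052-1964860, minus strand), a protein of the small ribosomal subunit, followed at 9388, 8583 and 7139 TPM. The large-subunit proteins RPL7A and RPL41 had 9011, 8649.8 and 7289 TPM for RPL7A and 6592, 6536 and 6799 TPM for RPL41. EEF1A1 was above RPS2 in each library, and the ranges of RPS2 and RPL7A overlapped. This order depends on the length used: over the longest transcript the means were 6790.3 TPM for EEF1A1, 5970.4 TPM for RPS2 and 9682 TPM for RPL7A. Of the 20 highest nuclear protein-coding genes, 16 encode cytosolic ribosomal proteins. RACK1, a scaffold that sits on the small subunit, had a mean of 5114 TPM, and TUBA1B, an alpha-tubulin of the cytoskeleton, had 3951 TPM. MTRNR2L12, at 5420.2 TPM, is a nuclear copy of mitochondrial ribosomal RNA sequence, and reads of the 2 cannot be fully separated. Ribosomal protein genes and EEF1A1 have many near-identical pseudogenes, so their levels also depend on how the authors' pseudoalignment divided shared reads.

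Of 85 cytosolic ribosomal protein genes measured, 81 were detected, at a median of 2608 TPM and from 24.7 to 8370 TPM. They made up 74 of the 126 nuclear protein-coding genes at 1000 TPM or more. The 13 protein-coding genes of the mitochondrial genome, which encode subunits of the respiratory chain and ATP synthase, were detected without exception. MT-CO1, a subunit of cytochrome c oxidase, was the highest of all genes at 14541, 17782 and 21516 TPM. MT-CO2 averaged 16346 TPM, MT-CO3 16312 TPM and MT-ATP6 10401 TPM. The lowest was MT-ND6, a subunit of complex I, at 24.3, 63.5 and 81.1 TPM.

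The start sites of these very abundant genes share a feature that their levels did not select. Transcripts of ribosomal proteins and translation factors typically begin with a run of pyrimidines, the 5′ terminal oligopyrimidine tract, through which their translation is tuned by nutrients and growth signals. The following 50 bases are shown because they span the annotated start of the most abundant transcripts, with 30 bases before it and 20 after. They come from RefSeq (GRCh38.p14) and read 5′ to 3′ on the transcribed strand, and capitals mark the pyrimidine run.
EEF1A1 (chr6:73521013-73521062, minus strand): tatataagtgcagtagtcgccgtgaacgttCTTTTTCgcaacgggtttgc
RPL7A (chr9:133348188-133348237, plus strand): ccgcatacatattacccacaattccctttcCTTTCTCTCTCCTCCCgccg
RPL41 (chr12:56116603-56116652, plus strand): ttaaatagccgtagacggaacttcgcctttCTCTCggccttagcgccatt
RACK1 (chr5:181243887-181243936, minus strand): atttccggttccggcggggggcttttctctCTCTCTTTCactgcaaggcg
RPS6 (chr9:19380217-19380266, minus strand): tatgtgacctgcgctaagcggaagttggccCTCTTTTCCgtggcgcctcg
The genes RPL4 and TUBA1B are shown beside them because their windows hold no such run at the annotated start. In RPL4 a run of C and T follows a few bases later, past the 3 bases that the scoring below allows.
RPL4 (chr15:66504836-66504885, minus strand): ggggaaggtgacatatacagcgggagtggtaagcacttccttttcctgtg
TUBA1B (chr12:49131376-49131425, minus strand): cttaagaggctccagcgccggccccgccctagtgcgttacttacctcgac
A run was scored where a C was followed by at least 4 bases that are each C or T, beginning within 3 bases of the start. It was present for 11 of the 13 genes among the 20 highest that have a window. Over all genes, windows with a run made up 68.9% (51 of 74) for ribosomal protein genes at 1000 TPM or more and 30.8% (20 of 65) for other genes at that level. The share was 16.3% for genes between 100 and 1000 TPM, 13.4% between 10 and 100, 13.2% between 1 and 10, and 12.1% under 1 TPM. Among all 20970 windows of 14858 protein-coding genes it was 13.4%. A match is a description of the letters and not of use as a start.

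**Figure D2:**
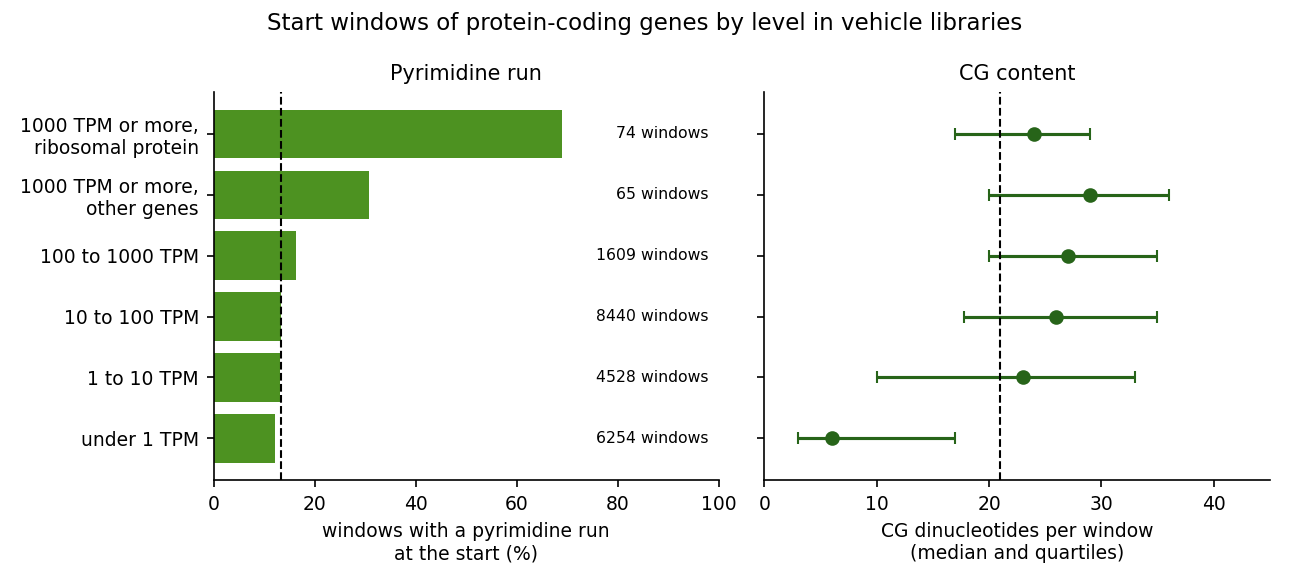
Annotated start windows of protein-coding genes by level in vehicle libraries: the share of windows with a pyrimidine run at the start (percent, bars) and the number of CG dinucleotides per window (median, with bars to the quartiles). The dashed lines mark all protein-coding genes, at 13.4% and 21; windows with a run reach 68.9% for ribosomal protein genes at 1000 TPM or more.

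Detected and silent genes also differed in the base composition of these windows, taken as 250 bases before the start to 50 after. The CG dinucleotide, which reads the same on both strands, occurred at a median of 26 per window for detected genes (quartiles 16 and 34) and 5 for genes at the floor (quartiles 2 and 12), against 21 over all windows. The letters TATAAA, searched on both strands in the 250 bases before the start, were in 5.65% of windows of detected genes and 18.5% of windows of genes at the floor, against 8.78% of all windows. Windows of 1 gene overlap where its annotated starts lie close together, so these shares are descriptions with no test.

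The lineage markers included most genes listed for the embryonic kidney, few of those for finished tubules, and several of neurons. Of 164 markers over 14 cell types, 58 were detected (35.4%), against 62.1% of all protein-coding genes. In bulk RNA a low level can mean few cells of a type or little RNA per cell, and the 2 cannot be told apart. The list named for nephron progenitors, the embryonic cells that give rise to kidney epithelium, had 15 of 17 genes detected. It also holds genes of the ureteric bud and the renal vesicle. GATA3, a factor of the ureteric bud, averaged 24.9 TPM. LHX1, which acts in the renal vesicle, was at 25.6, 14.9 and 15.7 TPM. Transcripts with a known length held 3.35% of its counts, and its CPM were 13.8, 14.6 and 13.3. The level of LHX1 and its spread in TPM are therefore uncertain. HOXD11 and SALL1, patterning factors of the kidney mesenchyme, averaged 17.1 and 14.97 TPM. The nephron factors WT1 and PAX2 were lower, at 8.80 and 3.86 TPM, and RET, the receptor of the ureteric bud, was at 1.07 TPM. PAX8 and MEOX1 of this list were below the detection rule, with means of 0.119 and 0.360 TPM.

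Genes of working tubules were mostly at or near the floor. Of 14 proximal tubule markers 2 were detected, LRP2, an endocytic receptor, at a mean of 2.22 TPM and GGT1, an enzyme that breaks down glutathione outside the cell, at 70.3, 99.98 and 88.7 TPM. GGT1 belongs to a family of near-identical copies, and transcripts with a known length held 2.50% of its counts, so its level is uncertain. The solute carriers SLC34A1, SLC5A2, SLC22A6 and SLC22A8, which reabsorb phosphate and glucose or secrete organic anions, were at the floor. Of 14 markers of the distal tubule and collecting duct, AQP3, a water channel, was the 1 detected gene at 6.72 TPM. UMOD, SLC12A1, SLC12A3 and AQP2, which define the thick limb, the distal tubule and the principal cell, were at the floor. Podocyte markers were detected for 5 of 8 genes (62.5%), near the 62.1% of all protein-coding genes. Among them was PODXL, a surface sialomucin, at 33.4 TPM. The slit diaphragm gene NPHS1, which defines that cell, was at the floor.

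Neuronal markers were detected for 12 of 17 genes (70.6%), against 62.1% of all protein-coding genes. UCHL1, a ubiquitin hydrolase abundant in neurons, stood at 618, 509 and 599 TPM, which put it far above the rest of that list. NEFL and INA, subunits of neurofilaments, were at 51.1, 50.96 and 57.98 TPM for NEFL and 48.1, 29.6 and 39.5 TPM for INA. ENO2, the neuronal enolase, averaged 26.02 TPM, TUBB3, a neuronal tubulin, 11.4 TPM and SYT1, a calcium sensor of synaptic vesicles, 3.65 TPM. DCX, ELAVL3 and ELAVL4, which mark young neurons, were at the floor. Of 16 markers of adrenal cortex and sympathetic cells only HAND2, a transcription factor, was detected, at 6.26 TPM. The catecholamine enzymes TH, DBH and DDC and the steroid enzymes CYP17A1 and CYP21A2 were at the floor. PNMT, which makes adrenaline, missed the detection rule at 1.37 TPM.

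Some epithelial and some mesenchymal genes were present side by side. Keratins 8 and 18, the filaments of simple epithelia, were at 107, 77.4 and 86.5 TPM for KRT8 and 81.9, 50.9 and 65.2 TPM for KRT18, and their ranges overlapped. OCLN, a tight junction protein, averaged 31.3 TPM, EPCAM 10.7 TPM and CDH1, the epithelial cadherin, 1.73 TPM. VIM, the intermediate filament of mesenchymal cells, stood at 755, 561 and 627 TPM. CDH2, the neural and mesenchymal cadherin, averaged 38.2 TPM, above CDH1 in each library. 8 of 14 epithelial and 9 of 15 mesenchymal markers were detected, each share below the 62.1% of all protein-coding genes. Of 9 pluripotency markers 3 were detected, a share also below 62.1%. These were LIN28B, DNMT3B and SOX2, at 33.7, 11.9 and 9.01 TPM, while POU5F1 and NANOG were at the floor.

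Markers of other lineages were not detected, melanocyte ones apart. None of the 11 blood, 8 endothelial, 8 hepatocyte and 7 muscle markers was detected. All 8 hepatocyte markers were at the floor, with a summed level from 0.257 to 0.883 TPM per library. The blood markers summed to 5.37, 1.46 and 2.73 TPM, of which HBA1, an alpha-globin with a near-identical copy, gave 3.59, 0.718 and 0.831 TPM from 20, 4 and 5 counts. PTPRC, the pan-leukocyte antigen, and PECAM1 and CDH5, endothelial adhesion proteins, were at the floor. Of 6 melanocyte markers MITF and PMEL were detected, at 4.17 and 1.82 TPM, and TYR, MLANA and SOX10 were at the floor.

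**Figure D3:**
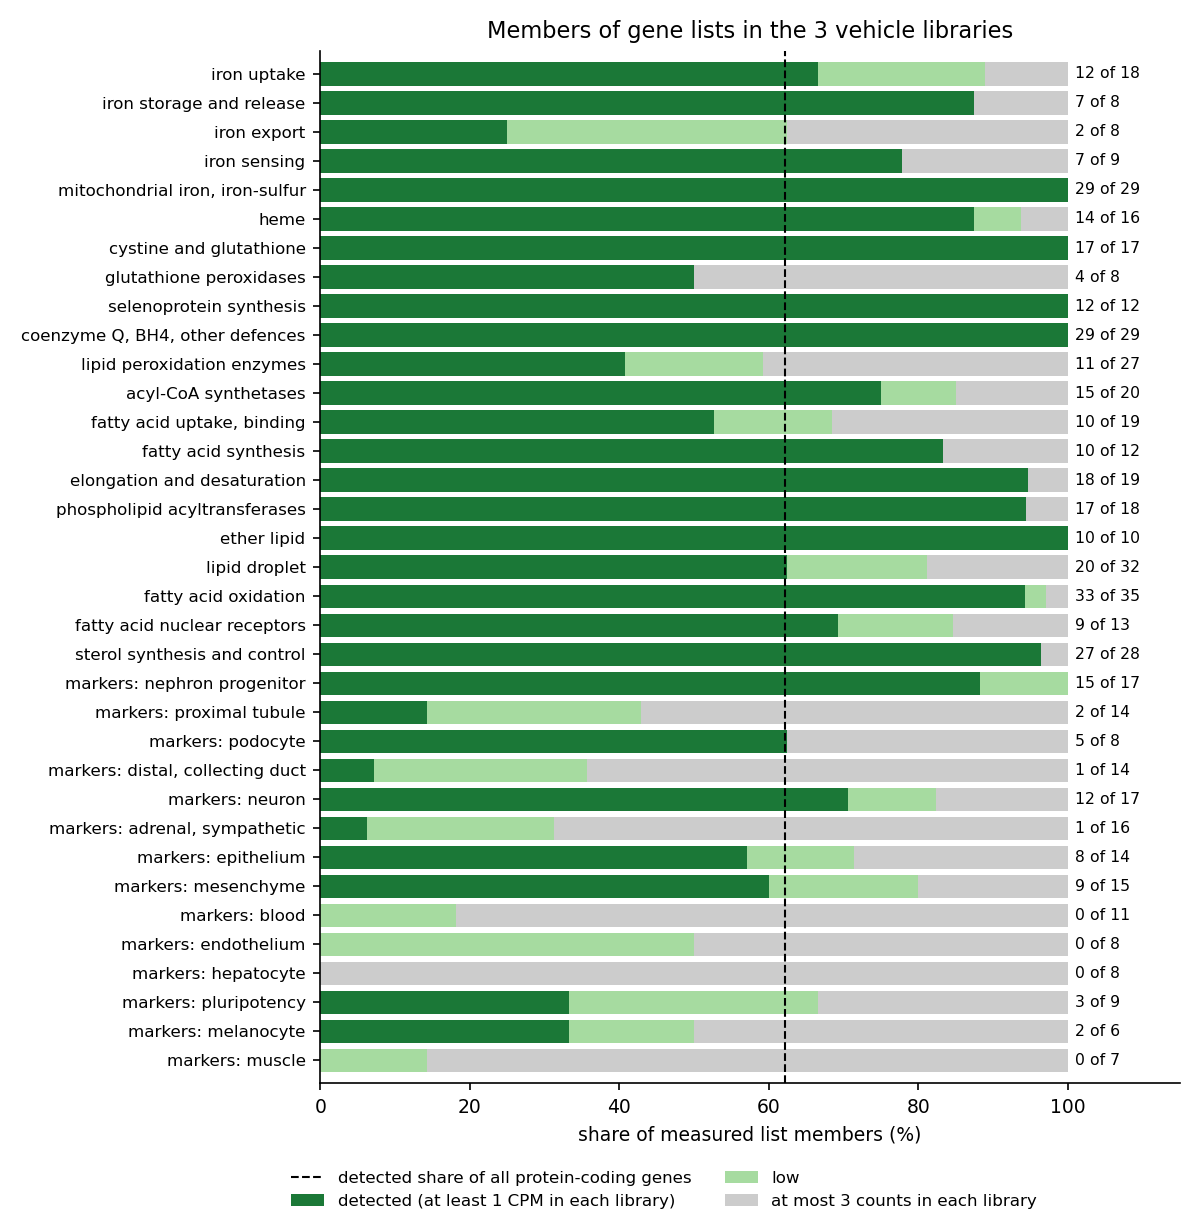
Share of measured members of each gene list (percent) that were detected, low, or at most 3 counts in each vehicle library, for iron, ferroptosis, lipid and lineage marker lists. The dashed line is the 62.1% of all protein-coding genes that were detected; the lists for mitochondrial iron, cystine and glutathione, selenoprotein synthesis, ubiquinone and biopterin defence, and ether lipids reach 100%, and blood, endothelium, hepatocyte and muscle markers stand at 0.

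The iron genes were largely present: 71 of 88 were detected (80.7%), against 62.1% of all protein-coding genes. The lists were chosen with earlier results of these data known, so these shares describe the lists and carry no test. Cells take up iron bound to transferrin through the transferrin receptor TFRC (chr3:196027183-196082189, minus strand). TFRC was at 40.4, 53.99 and 44.95 TPM (46.5 ± 6.90, SD, n = 3). Its ligand gene TF had a mean of 0.681 TPM, and TFR2, the second receptor of hepatocytes and red cell precursors, was at the floor. Among carriers of iron not bound to transferrin, SLC39A14 averaged 43.8 TPM and SLC39A8 28.2 TPM, and SLC39A14 was the higher in each library. STEAP3, the endosomal reductase that turns ferric into ferrous iron, averaged 29.3 TPM. SLC11A2 (DMT1), which carries ferrous iron out of the endosome, was at 17.3, 29.9 and 24.02 TPM. It was lowest in library 1. The ranges of TFRC and SLC39A14 overlapped, as did those of SLC39A8 and SLC11A2.

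Of the iron lists, storage and release had the highest summed and median level, and export the lowest. FTH1 (chr11:61959718-61967660, minus strand), the ferritin heavy chain that oxidises iron for storage, stood at 822, 716 and 733 TPM (757 ± 56.6, SD, n = 3), rank 162 among protein-coding genes. FTL (chr19:48965301-48966878, plus strand), the light chain, stood at 878, 629.98 and 719 TPM (742 ± 125). The heavy chain was higher in 2 of 3 libraries and the ranges overlapped, so the chains did not differ beyond their spread. Both have many near-identical pseudogenes. With longest transcripts for all genes FTL would stand at 1127 TPM, through the rescaling alone, since it has 1 annotated transcript. PCBP2 and PCBP1, which deliver iron to ferritin, averaged 776 and 222 TPM. NCOA4, the receptor that takes ferritin to the lysosome for release of its iron, was at 118, 111.8 and 121 TPM. FTMT, the mitochondrial ferritin, was at the floor.

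SLC40A1 (chr2:189560579-189583758, minus strand) encodes ferroportin, the known exporter of iron from cells. It was detected at 2.53, 3.04 and 2.90 TPM (2.82 ± 0.262). The ferroxidases that work with it, CP, HEPH and HEPHL1, were at the floor, and HAMP, the hormone that closes it, missed the detection rule. FLVCR1, which exports heme, was the other detected gene of the 8 on the export list, at 20.6 TPM. The summed level of the storage and release list, PCBP2 and PCBP1 included, was 2812, 2443 and 2624 TPM. It was 23.2, 26.1 and 23.3 TPM for the export list. The list of mitochondrial iron and iron-sulfur genes summed to 1710, 1651 and 1732 TPM. Such sums depend on which genes a list holds and on how many.

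Both iron regulatory proteins, which bind iron-responsive elements in messenger RNA when iron is short, were expressed. IREB2 was at 47.2, 60.9 and 63.2 TPM and ACO1 at 25.6, 29.3 and 28.4 TPM. IREB2 was higher in each library, by 1.84 to 2.23 times. FBXL5, the iron-sensing ligase subunit that marks IREB2 for degradation, averaged 20.97 TPM, and its partners SKP1 and CUL1 676 and 72.9 TPM. Over the longest transcript SKP1 would stand at 87.9 TPM and CUL1 at 110.5 TPM. BMP6, a signal that raises hepcidin in liver, averaged 15.8 TPM, whereas HJV and TMPRSS6 of the same liver circuit were at the floor.

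Windows of the shape those proteins are known to bind are shown because they sit in the transcripts that set uptake, storage and export. In a 5′ untranslated region such an element blocks translation when iron is short, and in a 3′ untranslated region it protects the message from decay. Windows were read from GENCODE 29 transcripts on GRCh38, 5′ to 3′ on the transcribed strand, and capitals mark the loop. In the 5′ untranslated regions of ferritin and ferroportin they read:
FTH1 (chr11:61967575-61967601, minus strand): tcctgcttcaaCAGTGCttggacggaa
FTL (chr19:48965336-48965362, plus strand): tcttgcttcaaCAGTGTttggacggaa
SLC40A1 (chr2:189580662-189580688, minus strand): aacttcagctaCAGTGTtagctaagtt
In the 3′ untranslated regions of TFRC, with 4 windows, and of SLC11A2 they read:
SLC11A2 (chr12:50988269-50988296, minus strand): gccatcagagcCAGTGTgtttctatggt
TFRC (chr3:196050464-196050490, minus strand): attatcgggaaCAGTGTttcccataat
TFRC (chr3:196050511-196050537, minus strand): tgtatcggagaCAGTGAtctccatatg
TFRC (chr3:196050576-196050602, minus strand): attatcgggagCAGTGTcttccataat
TFRC (chr3:196050980-196051006, minus strand): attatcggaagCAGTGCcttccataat
Those of ALAS2 and EPAS1, in the 5′ untranslated region, belong to a gene at the floor and a detected gene:
ALAS2 (chrX:55030942-55030968, minus strand): tcgttcgtcctCAGTGCagggcaacag
EPAS1 (chr2:46297480-46297507, plus strand): acaatcctcggCAGTGTcctgagactgt
The shape searched was the loop CAGTGN on a stem of 5 base pairs, an unpaired C on the 5′ side, and at least 4 of 5 further pairs, on the transcribed strand. It was found in 18 of 20352 protein-coding genes (0.0884%), of which 14 were detected, 1 was low and 3 (ALAS2, CAV3 and TLDC2) were at the floor. A form of 28 bases with 1 more unpaired base in the stem was found in 39 further genes (0.192%), among them SLC11A2 and EPAS1. Of these 39 genes 32 were detected, 2 were low and 5 were at the floor. Among all protein-coding genes 62.1% were detected and 25.5% were at the floor. The letters CAGTG alone were in an untranslated region of 81.9% of genes. SLC11A2 makes messages with and without the window, and those with it took 54.7%, 55.8% and 57.7% of its counts. EPAS1, a hypoxia-inducible factor, was at 6.88, 15.1 and 11.1 TPM, with library 1 the lowest. A match of these letters shows neither binding nor regulation in these cells.

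Mitochondria use iron for iron-sulfur clusters and heme, and this machinery was expressed throughout. All 29 listed genes of mitochondrial iron and iron-sulfur cluster assembly were detected. The chaperone HSPA9 averaged 391 TPM, CISD1, an outer membrane cluster protein, 136 TPM, the scaffold ISCU 78.6 TPM and the cysteine desulfurase NFS1 32.9 TPM. Over the longest transcript CISD1 and ISCU would stand at 84.5 and 34.2 TPM. The mitochondrial iron carrier SLC25A28 averaged 33.9 TPM and its paralog SLC25A37, the carrier used in red cell precursors, 14.01 TPM. IBA57, a late assembly factor, was the lowest of the list at 4.42 TPM. Heme genes were detected for 14 of 16 members. ALAS1, the first enzyme of heme synthesis in most tissues, averaged 32.3 TPM, whereas its red cell form ALAS2 was at the floor. FECH, which inserts iron into heme, averaged 106 TPM, or 49.6 TPM over its longest transcript, and transcripts with a known length held 21.7% of its counts. Of the heme oxygenases, the constitutive HMOX2 was at 40.1, 41.7 and 40.4 TPM and the stress-induced HMOX1 at 10.4, 7.84 and 14.5 TPM. HMOX2 was higher in each library, by 2.80 to 5.32 times.

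Of 93 ferroptosis genes 73 were detected (78.5%), against 62.1% of all protein-coding genes. Ferroptosis defence starts with cystine import by system xc-, a pair of SLC7A11, the transporter, and SLC3A2, its heavy chain. SLC7A11 (chr4:138164097-138242349, minus strand) was at 2.28, 2.64 and 2.97 TPM and SLC3A2 (chr11:62856102-62888875, plus strand) at 98.3, 94.3 and 107 TPM. SLC3A2, which also pairs with other amino acid carriers, was higher by 35.7 to 43.1 times by TPM. This ratio rests on the annotated length of 9645 bases for SLC7A11-201. Before division by length, the mean CPM were 97.8 for SLC3A2 and 14.2 for SLC7A11. Nothing in the RNA level says how much transporter is made. The other members of the cystine and glutathione list were detected too, 17 of 17 in all. The glutamine carrier SLC1A5 averaged 360.3 TPM. GCLC and GCLM, the catalytic and modifier subunits that start glutathione synthesis, averaged 42.1 and 21.1 TPM, with GCLC higher by 1.79 to 2.34 times. GSS, which finishes it, averaged 53.1 TPM and GSR, which keeps glutathione reduced, 77.5 TPM. MAT2A, which makes S-adenosylmethionine, was at 118, 169.9 and 173 TPM, and AHCY, which clears the product left after methyl transfer, averaged 292 TPM. CHAC1, which degrades glutathione under stress, was at 5.95, 6.64 and 7.80 TPM.

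GPX4 (chr19:1103926-1106791, plus strand), the selenoenzyme that reduces phospholipid hydroperoxides in membranes, was at 547, 505 and 459.97 TPM (504 ± 43.3, SD, n = 3), rank 234 among protein-coding genes. GPX1, the soluble form, was at 352, 259.6 and 243 TPM. GPX8 and GPX3, of the endoplasmic reticulum and of plasma, averaged 52.6 and 16.3 TPM. The ranges of these 4 genes did not overlap, and GPX2, GPX5, GPX6 and GPX7 were at the floor. With the gene's count over its longest transcript, GPX4 and GPX1 overlapped, at 511 and 428 TPM. All 12 genes of the selenoprotein synthesis list were detected. They ran from 4.27 TPM for SEPSECS, which forms selenocysteine on its tRNA, to 107 TPM for TXNRD1, the cytosolic thioredoxin reductase.

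Defences outside the glutathione and glutathione peroxidase lists were present, and all but TXN averaged less than GPX4. All 29 genes of the ubiquinone, biopterin and related list were detected. TXN, thioredoxin, averaged 756 TPM and PRDX6, a peroxiredoxin that acts on phospholipid hydroperoxides, 432 TPM. AIFM2 (FSP1), which regenerates ubiquinol at membranes, was at 8.37, 6.73 and 7.51 TPM. DHODH, which does so in mitochondria, was at 8.58, 12.4 and 12.8 TPM, and GCH1, which starts tetrahydrobiopterin synthesis, at 10.7, 7.81 and 8.17 TPM. In each library these 3 genes lay below the median detected gene of 20.2 TPM. DHCR7, whose substrate 7-dehydrocholesterol traps lipid radicals, averaged 50.8 TPM. The stress factor NFE2L2 was at 39.5, 47.9 and 49.4 TPM and KEAP1, which holds it down, averaged 50.05 TPM. NQO1, a target of NFE2L2, averaged 6.20 TPM.

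Of 27 enzymes and partners that promote lipid peroxidation, 11 were detected (40.7%), below the 62.1% of all protein-coding genes. ACSL4 (chrX:109624244-109733403, minus strand), which activates arachidonic acid for entry into phospholipids, was at 13.97, 21.2 and 15.2 TPM. LPCAT3, which then inserts it, was at 22.99, 25.5 and 16.96 TPM. POR and CYB5R1, reductases that feed electrons to lipid peroxidation, averaged 39.3 and 26.97 TPM. The voltage-dependent channels VDAC2 and VDAC3 averaged 336 and 188 TPM, and PEBP1, a partner of lipoxygenases, 313 TPM. The lipoxygenases themselves were low. ALOX5 was detected at 3.09, 3.82 and 1.31 TPM and ALOX12B, a skin form, at a mean of 2.92 TPM. ALOX15 had 9, 2 and 1 counts, or 0.349, 0.0855 and 0.0396 TPM, and ALOX12 had 0 counts in each library. PTGS2, a cyclooxygenase often used as a ferroptosis marker, was at 0.596, 0.313 and 0.563 TPM. The NADPH oxidases NOX1, NOX3, NOX4 and NOX5 and the dual oxidases DUOX1 and DUOX2 were at the floor, while CYBA, a small membrane subunit of several NADPH oxidases, averaged 129 TPM.

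**Figure D4:**
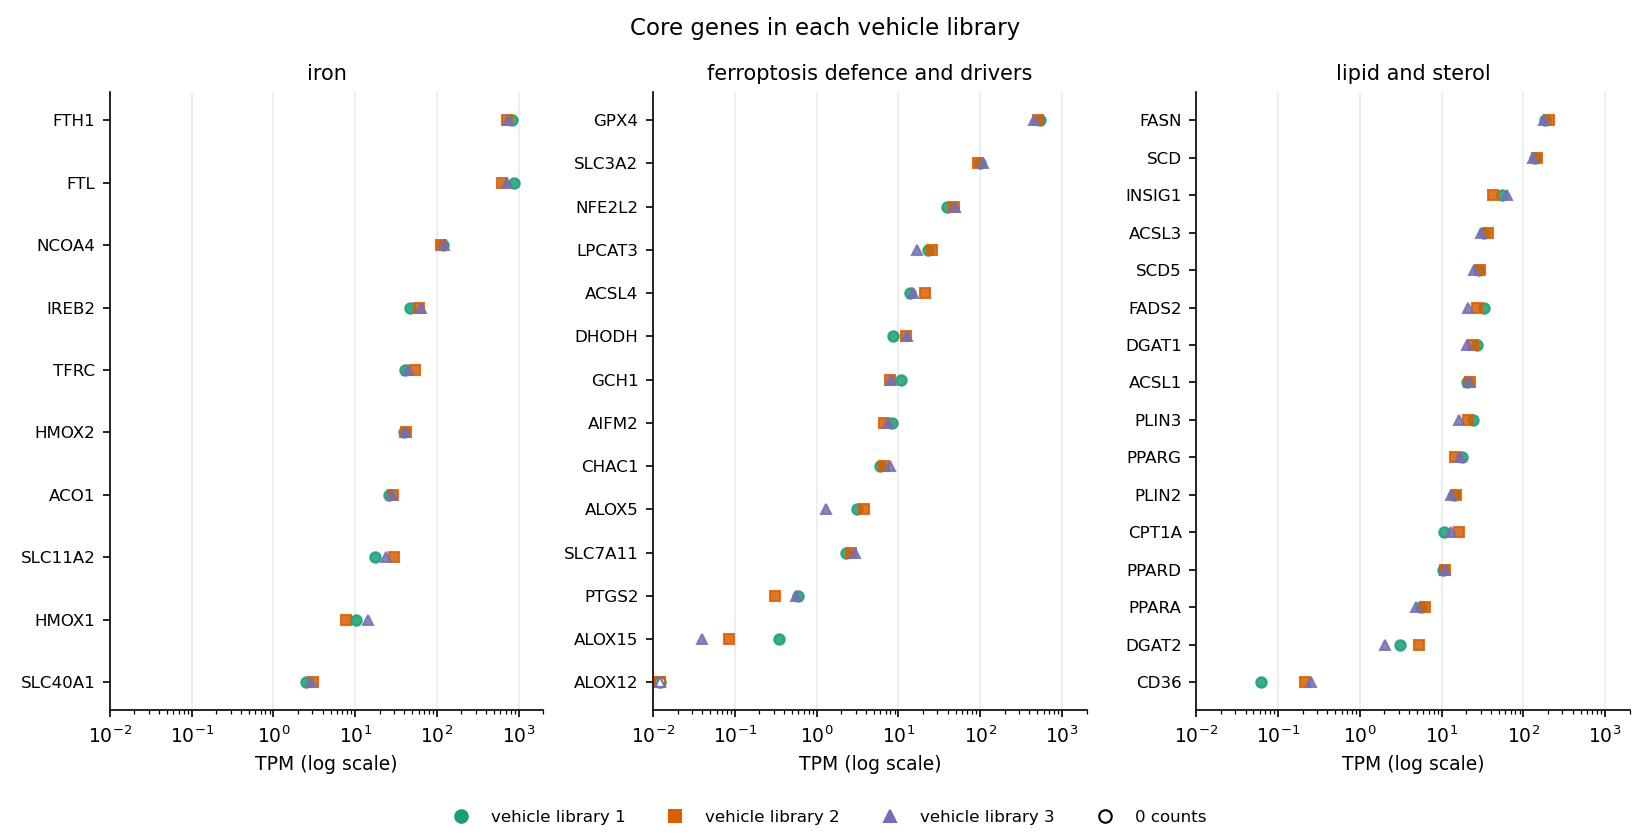
Level of 40 of the 42 core genes of iron, ferroptosis and lipid metabolism in each vehicle library (TPM, log axis); markers are the libraries and open symbols stand for 0 counts. FTH1, FTL and GPX4 average 757, 742 and 504 TPM, and ALOX12 is at 0 in the 3 libraries.

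Of 206 lipid genes 169 were detected (82.0%), against 62.1% of all protein-coding genes. Free fatty acids such as oleic acid must be bound, carried in and coupled to coenzyme A before use. CD36, a scavenger receptor that takes up fatty acids, missed the detection rule at 0.0615, 0.213 and 0.254 TPM. SLC27A4, a transport protein with acyl-CoA synthetase activity, averaged 37.8 TPM. FABP5 averaged 115.4 TPM and was the highest of the listed FABP genes, while FABP1, FABP2, FABP4 and FABP7, the liver, gut, fat and brain forms, were at the floor. DBI, which binds acyl-CoA, averaged 193 TPM. Among long-chain acyl-CoA synthetases ACSL3, the form of lipid droplets and the endoplasmic reticulum, which is known for activating oleic acid, was at 32.7, 37.1 and 30.3 TPM. ACSL1 was at 20.4, 22.5 and 21.8 TPM. ACSL3 exceeded ACSL1 in each library without overlap, the ranges of ACSL1 and ACSL4 overlapped, and ACSL6 was lower at 4.26 TPM. ACSL5 was at the floor.

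Genes of fatty acid synthesis were detected for 10 of 12 members, at a median of 20.1 TPM over the 12, beside 20.2 TPM for all detected protein-coding genes. ACLY, which makes cytosolic acetyl-CoA, averaged 290.3 TPM, FASN, the synthase, was at 185, 204 and 180.5 TPM, and ACACA, which commits carbon to the pathway, averaged 38.2 TPM. SCD, which desaturates stearic into oleic acid, was at 139.7, 148 and 131 TPM. Its paralog SCD5 averaged 27.5 TPM, and SCD was higher by 4.88 to 5.31 times. The desaturases that make polyunsaturated fatty acids were lower than SCD, FADS1 at 42.8 TPM and FADS2 at 33.2, 27.1 and 20.9 TPM. FADS2 was lowest in library 3. TECR and HACD3, shared steps of elongation, averaged 322 and 183 TPM, and ELOVL5, which elongates polyunsaturated chains, 70.5 TPM. Of the acyltransferases that remodel phospholipids, LPCAT1 averaged 129 TPM and exceeded LPCAT3 by 4.94 to 6.70 times. The 10 measured ether lipid genes, which make plasmalogens, were detected, with GNPAT, the first step, at 62.6 TPM, AGPS, the second, at 35.5 TPM and FAR1, the reductase that sets supply, at 46.4 TPM.

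Genes of lipid droplets and triglyceride turnover were detected for 20 of 32 members (62.5%), against 62.1% of all protein-coding genes. DGAT1, which completes triglycerides, was at 27.03, 24.4 and 20.3 TPM and DGAT2 at 3.13, 5.30 and 2.06 TPM. By TPM of the whole gene DGAT1 was higher by 4.60 to 9.86 times. The retained-intron DGAT1-203 held 60.7, 57.2 and 60.8% of its counts on transcripts with a known length. The coding DGAT1-206, of 3711 bases, had 47, 55 and 40 counts. The coding DGAT2-201, of 2453 bases, had 64, 68 and 44 counts. Transcripts with a known length held 49.9% of the counts of DGAT1 and 100% of those of DGAT2. The order of DGAT1 and DGAT2 by coding transcripts therefore cannot be told. PLIN3 and PLIN2, coats of lipid droplets, were at 23.9, 20.9 and 16.4 TPM for PLIN3 and 14.2, 14.9 and 13.03 TPM for PLIN2, without overlap. PLIN1, PLIN4 and PLIN5 missed the detection rule, and CIDEA, CIDEB and CIDEC, which fuse droplets in fat and liver cells, were at the floor. PNPLA2, the first lipase of triglycerides, averaged 49.6 TPM. LIPE, the hormone-sensitive lipase, and LPL, lipoprotein lipase, were detected too, at 12.3 and 4.55 TPM, with LIPE at 6.83 TPM over its longest transcript. Fatty acid oxidation genes were detected for 33 of 35 members, with CPT1A, the mitochondrial gate, at 10.6, 16.2 and 13.2 TPM and ETFA, the electron acceptor, at a mean of 274 TPM. The ranges of CPT1A and CPT1B overlapped. Of the receptors that sense fatty acids, PPARG was at 17.95, 14.6 and 16.9 TPM, PPARD at 10.47, 11.1 and 11.1 TPM and PPARA at 5.63, 6.28 and 4.81 TPM. The order of PPARG and PPARD was lost with the gene's count over its longest transcript, where their means were 18.8 and 16.2 TPM and their ranges overlapped. The liver receptors HNF4A and NR1H4 were at the floor.

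Cholesterol synthesis was expressed for 27 of 28 genes, at a median of 49.5 TPM. FDPS, FDFT1 and HMGCS1, steps from acetyl-CoA to squalene, averaged 256, 148 and 145 TPM. SQLE and MSMO1, which oxidise squalene and demethylate sterols, averaged 77.2 and 38.7 TPM. SREBF2, the transcription factor of the pathway, averaged 64.02 TPM and SCAP, its escort, 48.3 TPM. INSIG1, which retains that pair in the endoplasmic reticulum, was at 55.2, 42.9 and 63.8 TPM. IDI2, a paralog of IDI1 known from muscle, was at the floor.

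Several of these genes were carried by 1 main transcript and others were not. TFRC-201 took 98.1, 97.2 and 97.4% of the TFRC counts. GPX4-210, a form of 170 codons, took 92.1, 90.8 and 92.5%, and GPX4-201, with 197 codons, took 2.84%, 3.91% and 2.58%. For FTH1, FTH1-212 held 50.2, 58.4 and 59.8% and FTH1-210, annotated for nonsense-mediated decay, 17.8, 11.3 and 11.7%. At UCHL1 the retained-intron UCHL1-211 held a mean of 48.7%. Some low genes had no stable split. GCH1-204 took 91.5, 0 and 54.4% of the GCH1 counts and GCH1-201 0, 100 and 32.5%. Such shares are estimates from reads shared between transcripts, and no spread of that estimate was used here.

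The vehicle libraries themselves differed in composition. Library 1 had more ribosomal protein messages and library 3 more mitochondrial ones. Ribosomal protein genes took 10.3%, 9.0005% and 8.15% of counts, and 79 of 81 detected ones were higher by TPM in library 1 than in library 3. Mitochondrially encoded genes took 4.32%, 5.18% and 6.32% of counts, and 12 of 13 were higher in library 3 than in library 1, with MT-ND3 the exception. Deviations of a library from the mean of the 3 were correlated with transcript length across 12577 genes, at −0.36, 0.28 and 0.19, as a description over genes that share their library. The part these differences play in the levels above was not tested. Over all detected genes the median SD of log2 CPM was 0.146, and over the 38 detected core genes it was 0.137. The widest spread among these was that of DGAT2 (0.505), ALOX5 (0.467) and HMOX1 (0.458), and the narrowest that of PPARD (0.0188).

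Setting the treated libraries against this baseline asks which of these genes move with iron or oleic acid. All 12 libraries entered 1 edgeR quasi-likelihood fit of 14209 genes, with Benjamini-Hochberg adjustment over all of them, and levels here are CPM scaled by TMM. The 3 comparisons share the vehicle libraries. With oleic acid and FAC together 436 genes passed at an adjusted p under 0.05 (3.07%), 146 higher (1.03%) and 290 lower (2.04%). With FAC alone 169 passed (1.19%), 65 higher (0.457%) and 104 lower (0.732%). With oleic acid alone edgeR called 0 (0.0%), with 118 genes at an unadjusted p under 0.05, and DESeq2 called 0 too. The FAC count was 37, 53 and 37 without FAC library 1, 2 and 3, and 79, 33 and 27 without vehicle library 1, 2 and 3. For oleic acid with FAC the counts were 324, 76 and 184 without treated library 1, 2 and 3, and 312, 65 and 62 without vehicle library 1, 2 and 3.

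The filter on low counts kept 73 of 88 iron genes, 76 of 93 ferroptosis genes, 175 of 206 lipid genes and 70 of 164 lineage markers for the test. Of the iron genes tested, TFRC and ALAD fell with oleic acid and FAC, against 2.04% of all genes tested, and TFRC fell with FAC alone, against 0.732%. TFRC was at 16.3, 14.02 and 13.3 CPM with oleic acid and FAC, 19.7, 22.1 and 16.8 CPM with FAC, 130.2, 122 and 57.8 CPM with oleic acid, and 113, 134 and 119 CPM with vehicle. The log2 fold change was -3.06 (SE 0.255, adjusted p = 0.000107) with oleic acid and FAC and -2.64 (SE 0.249, adjusted p = 0.000232) with FAC. Every library given FAC was below every vehicle library, and the third oleic acid library was below vehicle as well. FTH1, whose message carries the 5′ element printed above, was at 462, 523 and 668 CPM with oleic acid and FAC, 467, 385 and 528 CPM with FAC and 439, 353 and 369.7 CPM with vehicle. Its log2 fold changes were 0.51 (adjusted p = 0.12) and 0.25 (adjusted p = 0.672), and neither passed. FTL, SLC40A1 and HMOX1 did not pass either, with log2 fold changes of 0.28, -1.18 and 0.28 with FAC, at adjusted p of 0.781, 0.115 and 0.88.

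Of the 76 ferroptosis genes tested, MAT2A fell in both groups given FAC, and DHCR7 and SAT1, an enzyme of polyamine breakdown, rose with oleic acid and FAC. Over all genes tested 2.04% fell and 1.03% rose with oleic acid and FAC, and 0.732% fell with FAC. MAT2A was at 54.3, 47.8 and 38.8 CPM with oleic acid and FAC, 51.3, 86.8 and 59.3 CPM with FAC, 213, 249 and 174 CPM with oleic acid, and 189, 255 and 263 CPM with vehicle. Its log2 fold change was -2.33 (SE 0.217, adjusted p = 0.000208) with oleic acid and FAC and -1.84 (SE 0.213, adjusted p = 0.00121) with FAC. GPX4 had log2 fold changes of 0.51 and 0.19 (adjusted p = 0.148 and 0.805). SLC7A11 had -0.67 and -0.56 (adjusted p = 0.104 and 0.293), and CHAC1 -0.57 and -1.48 (adjusted p = 0.35 and 0.076). A p above the threshold does not show that these levels were equal.

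**Figure D5:**
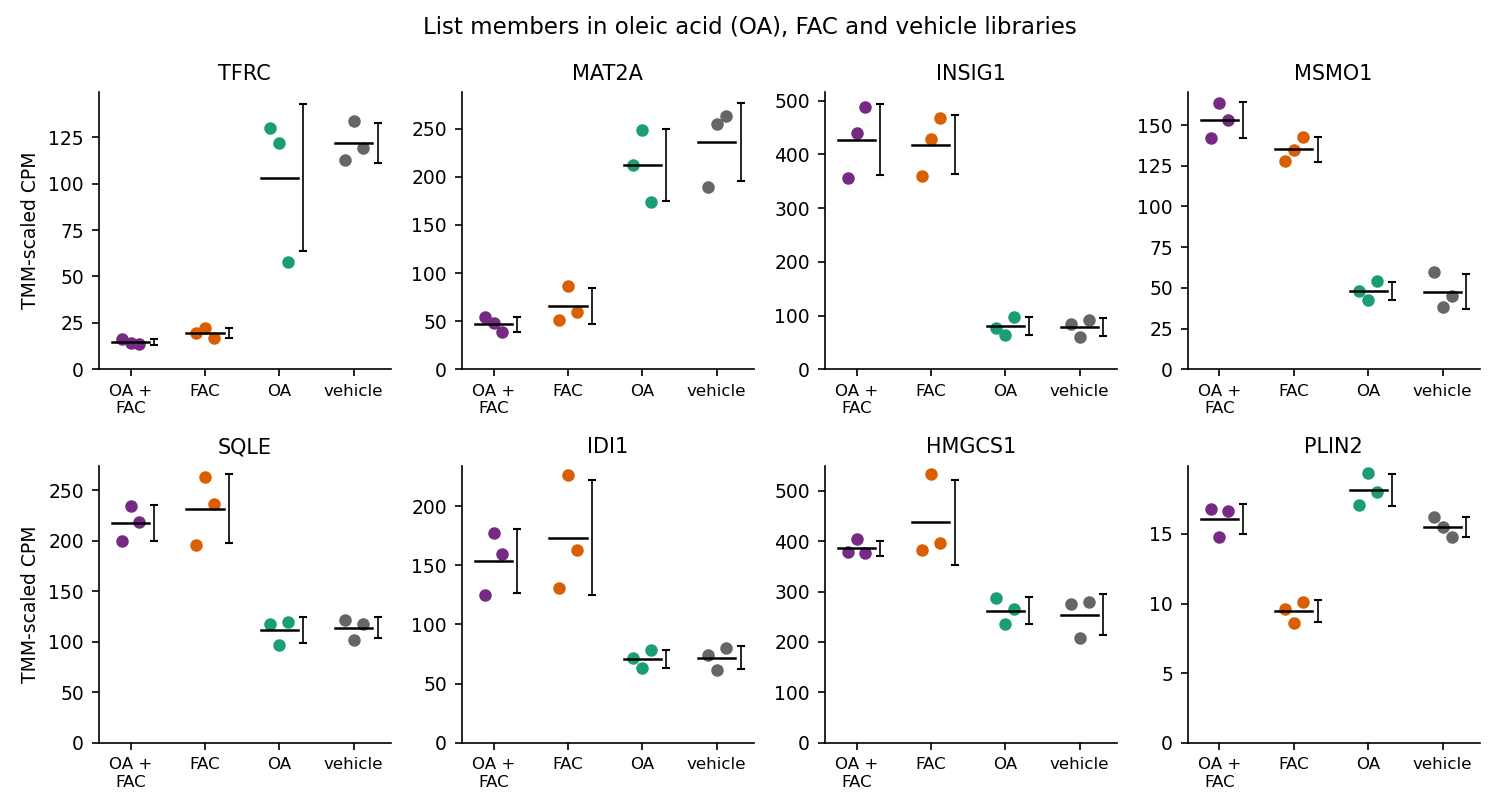
TMM-scaled CPM of TFRC, MAT2A, INSIG1, MSMO1, SQLE, IDI1, HMGCS1 and PLIN2 in 4 groups: oleic acid with FAC (OA + FAC), FAC, oleic acid (OA) and vehicle; points are libraries, lines the mean and bars the SD of 3. TFRC and MAT2A lie below vehicle in the libraries given FAC, and INSIG1 and MSMO1 lie above it.

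Of the 175 lipid genes tested, 8 rose and 1 fell with oleic acid and FAC, against 1.03% higher and 2.04% lower among all genes tested. With FAC 7 rose and 2 fell, against 0.457% higher and 0.732% lower. INSIG1, MSMO1, SQLE and IDI1, genes of sterol synthesis and its control, rose with both treatments. INSIG1 was at 356, 439.6 and 488 CPM with oleic acid and FAC, 359, 428 and 467 CPM with FAC, 77.5, 64.6 and 97.6 CPM with oleic acid, and 84.999, 59.7 and 92.6 CPM with vehicle. Its log2 fold change was 2.43 (SE 0.202, adjusted p = 0.000107) and 2.40 (SE 0.202, adjusted p = 0.000179) in these groups given FAC. MSMO1 changed by 1.68 and 1.504, SQLE by 0.93 and 1.03, and IDI1 by 1.10 and 1.27, on the log2 scale. DHCR7, ELOVL6 and FDFT1 also rose and SLC27A4 fell with oleic acid and FAC, and HMGCS1 rose and ACOX3 fell with FAC. PLIN2 fell with FAC, to 9.62, 8.63 and 10.1 CPM, against 16.2, 15.5 and 14.8 CPM with vehicle (-0.71, SE 0.121, adjusted p = 0.0146). With oleic acid and FAC it was at 16.8, 14.8 and 16.6 CPM (0.05, adjusted p = 0.827). The difference between these responses to FAC was not tested.

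Of 70 lineage markers tested, LHX1 and SYT1 rose with oleic acid and FAC, against 1.03% higher among all genes tested, and none passed with FAC, against 1.19%. The median log2 fold change of all genes tested lay between −0.0029 and 0.0058 in the 3 comparisons. The median was 0.041 for the iron genes, −0.015 for the ferroptosis genes, 0.065 for the lipid genes and 0.18 for the markers with oleic acid and FAC. With FAC it was −0.0014 for the iron genes, −0.044 for the ferroptosis genes, 0.0077 for the lipid genes and 0.15 for the markers. INSIG1, MAT2A, MSMO1, SQLE and TFRC passed in both groups given FAC under each of 12 alternatives, 6 of which left out 1 library. With FAC, IDI1 lost its call without vehicle library 2. With oleic acid and FAC, IDI1 lost it without vehicle library 2 or 3 or treated library 2, and LHX1, SAT1, SLC27A4 and DHCR7 kept it in 1 of these 6 fits, without treated library 3 for DHCR7 and without treated library 1 for the others. PLIN2, HMGCS1 and ACOX3 with FAC, and ALAD, ELOVL6, FDFT1 and SYT1 with oleic acid and FAC, lost their call whichever library was left out, with an adjusted p of at most 0.192 over all alternatives.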

How the data were processed

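Per the labels' protocols, RNA from HEK293 cells (integrity number 10 throughout) was poly-A selected and sequenced from TruSeq libraries. The authors deposited estimated counts per gene and per transcript, made with kallisto per the labels. Versions come from the submitters' processing notes: kallisto 0.46.1, bcl2fastq 2.19 and sleuth 0.30.0, with the build GRCh38.p12 (hg38). The annotation release of the kallisto index is not given there. The deposited values were already whole numbers.

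Here TPM were computed as each gene's count over the count-weighted mean length of its transcripts in GENCODE 29, with lengths of 100 bases or more; 97.1% of 36459 symbols were found there, and transcripts with a length held 97.5% to 97.6% of the vehicle counts. CPM were scaled by TMM. Of the listed names, 5 were not matched. The fit used edgeR 4.0.16 and limma 3.58.1 (filterByExpr, glmQLFit, 1 mean per group) in R 4.3.3 and was tested on simulated data. DESeq2 1.42.0 served as an alternative, and Python 3.11.15, pandas 2.3.3 and numpy 2.4.6 did the rest. Without molecular identifiers, floors reflect counting error alone. Levels of neighbouring genes were called different only where their ranges over 3 libraries did not overlap.

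The members and gene lists were chosen with earlier results of these data known. The rule named the 20 highest nuclear genes, 42 core genes, in each list up to 4 highest members and any at the floor or past the test, the 3 core genes with the widest spread, and transcripts with at least 10% of a core gene's counts. Further genes were named after their values were seen. Alternatives were other detection thresholds, length definitions and normalizations, a fit without the filter, a fit with the replicate number as a block, and fits without single libraries. Some genes are not reported here.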

Additional observations from a re-analysis of the deposited data

How the results depend on the processing

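The number of detected genes moved little with the threshold: detected protein-coding genes numbered 12831 at 0.5 CPM and 11705 at 2 CPM, against 12313. The median level of the 42 core genes was 20.98 TPM, 17.5 TPM with 200 bases taken off each length, and 19.9 to 21.9 TPM with 1 vehicle library left out. Of the 42 pairs of neighbouring genes whose ranges did not overlap, 3 overlapped with the shorter lengths, 4 overlapped or turned round with the longest transcript, and 1 overlapped over nuclear genes only. Counts of genes past the test moved most. With FAC, 169 genes became 505 with DESeq2, 351 with only these groups in the fit, 672 without library 3 of oleic acid and library 3 of oleic acid with FAC, and 27 to 79 with 1 library left out. With oleic acid and FAC, 436 became 1248, 162 and 704 under the same 3 settings, and 62 to 324 with 1 library left out. The cause was not tested. With the replicate number as a block, 431 genes passed with FAC and 1528 with oleic acid and FAC. Deviations of libraries numbered 1, 2 and 3 from their group means were correlated with those of same-numbered vehicle libraries. The values were 0.24, 0.30 and −0.010 for FAC and −0.048, 0.27 and −0.034 for oleic acid. For oleic acid with FAC they were −0.072, 0.23 and 0.016. Whether the numbers pair the samples cannot be told from these values. Among single genes, 99 results over all alternatives lost their call and 0 reversed. At these depths a gene under 0.165 to 0.185 CPM cannot be told from 0.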

Other observations

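Several features outside the protein-coding genes reached high levels in the vehicle libraries. RPL23AP42, annotated as a processed pseudogene of a ribosomal protein, stood at 3681, 3477 and 3047 TPM, which would place it among the ribosomal protein genes. MTATP6P1, a nuclear copy of the mitochondrial gene MT-ATP6, was at 928, 1236 and 1590 TPM, lowest in library 1 and highest in library 3, in the same order as MT-ATP6 itself. AC011481.1, annotated as a long intergenic RNA, was at 1085, 1003 and 1062 TPM. Pseudogenes together held 1.47% to 1.53% of all TPM. Reads of such copies and of the genes they resemble are hard to separate, and how much of these levels belongs to the copies was not tested.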
